A study of Mus musculus with 8 samples.

Results

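Broad promoters of protein-coding genes are described here as CAGE-seq tag clusters of E14 cells, the wild-type mouse embryonic stem cells (mESCs) of the study. A tag cluster is a run of nearby transcription start sites (TSSs) on 1 strand, its dominant TSS is the base with the strongest signal, and its interquantile width is the length in bp between the positions where the summed signal reaches 0.1 and 0.9. A cluster was a member when its dominant TSS lay within 500 bp of the 5'-most start of a protein-coding gene on the same strand (GENCODE vM21, mm10) and its interquantile width was from 11 to 50 bp. These limits gave 8154 members at 6981 genes, of 13857 E14 clusters at coding starts and 32857 E14 clusters in all. The width chose the members and is given as a description.

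The nuclear RNA of 8 libraries was sequenced, 3 of E14, 2 of the Pwwp2a/b DKO clone A1 and 3 of the DKO clone C7. PWWP2A and PWWP2B are chromatin readers that form a complex with histone deacetylases, and both genes are knocked out in both clones, each of which is a single mESC clone. All lines were embryonic stem cells grown with LIF. The replicates of each line were merged before clusters were called, so each line gives 1 value with no replicate error, no test between lines could be made, and the intervals given are 95% Wilson intervals that cover counting error only. The clusters carry no signal values (every score is 0), so depth could not be set beside single clusters. By the study's list of mapped reads, not by the deposited clusters, E14 was the most deeply sequenced set and A1 the least. Of 8 embryonic stem cell markers, 7 had a cluster at the coding start in every line, the exception being Esrrb, while fibroblast markers had one for 2 of 5 genes in E14 and 3 of 5 in A1 and C7. Among differentiation markers, Sox7 alone of 4 primitive endoderm genes and Sox1 alone of 4 mesoderm and neural genes had a cluster, in all 3 lines.

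CAGE-seq captures the cap of RNA made by RNA polymerase II and reads the first base after it, and so places a TSS to the base. Mammalian promoters are commonly divided into sharp promoters, where most initiation falls on a few bases and which often carry a TATA box, and broad promoters, where initiation is spread over many neighbouring bases within a CpG island. Polymerase prefers to start on a purine that follows a pyrimidine, the core of the initiator, and genes of the translation machinery are known for starting instead on a cytosine inside a pyrimidine tract, the TOP motif of their mRNAs.

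Sequences from mm10 (RefSeq GRCm38.p6 and GENCODE vM21 tables) are shown for the kinds of start site found among the members, each 5' to 3' on the strand of the gene. The first group holds whole interquantile regions, in capitals, and shows how a broad promoter spreads over its start. They belong to Mrpl22 (chr11:58171648-58171681, plus strand), a mitochondrial ribosomal protein, to Prpf39 (chr12:65036318-65036349, plus strand), a splicing factor, and to Suz12 (chr11:79993056-79993122, plus strand), a subunit of Polycomb repressive complex 2.
Mrpl22: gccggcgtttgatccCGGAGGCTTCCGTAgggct
Prpf39: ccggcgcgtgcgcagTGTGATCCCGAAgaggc
Suz12: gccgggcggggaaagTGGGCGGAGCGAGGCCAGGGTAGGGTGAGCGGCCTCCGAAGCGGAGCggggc

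The second group shows 21 bases around the dominant TSS, with the base before it and the TSS itself in capitals. Psmb4 (chr3:94886923-94886943, minus strand), a proteasome subunit, Mrps5 (chr2:127587264-127587284, plus strand), a mitochondrial ribosomal protein, and Brca2 (chr5:150522651-150522671, plus strand), a DNA repair protein, start on the CA step. Rpl37 (chr15:5116635-5116655, plus strand), Rpl4 (chr9:64173364-64173384, plus strand) and Rpl38 (chr11:114668570-114668590, plus strand), proteins of the cytosolic ribosome, start on a cytosine within pyrimidines.
Psmb4: tagcgctttCAtttctgtcgg
Mrps5: ccacgagggCAgttttccgtg
Brca2: cgttgccgtCAgtcagctacc
Rpl37: ggggtgcttTCtcttccggtc
Rpl4: acaagtcttTCcttttcctgt
Rpl38: aagcctcgtTCtttccccgtt

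Broad was the commonest class at coding starts. It held 58.8% of the 13857 coding-start clusters of E14 (interval 58 to 59.7%), against 28.6% sharp clusters of up to 10 bp and 12.5% wider than 50 bp. The same limits on the clones' own widths gave 8101 of 13860 coding-start clusters in A1 (58.4%) and 8060 of 13844 in C7 (58.2%), both within 1 percentage point of E14. The share differed little between chromosomes, from 54.7 to 62.4% over chromosomes 1 to 19 and X. On the mitochondrial chromosome, which RNA polymerase II does not transcribe, 9 of 31 coding-start clusters (29%) met the rule, at mt-Co1, mt-Cytb and mt-Nd5, and they are counted among the members. At the lower limit 222 clusters had a width of 10 bp and 244 of 11 bp, and at the upper limit 121 had 50 bp and 118 had 51 bp, so neither limit falls in a gap of the distribution. At 10 bp, for example, AI429214 was 10 bp wide in E14, 2 bp in A1 and 10 bp in C7, and at 51 bp Aggf1, an angiogenic factor, was 51, 52 and 48 bp wide. Just inside the upper limit 1110059E24Rik was 50 bp wide in E14, 64 bp in A1 and 68 bp in C7.

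**Figure D1:**
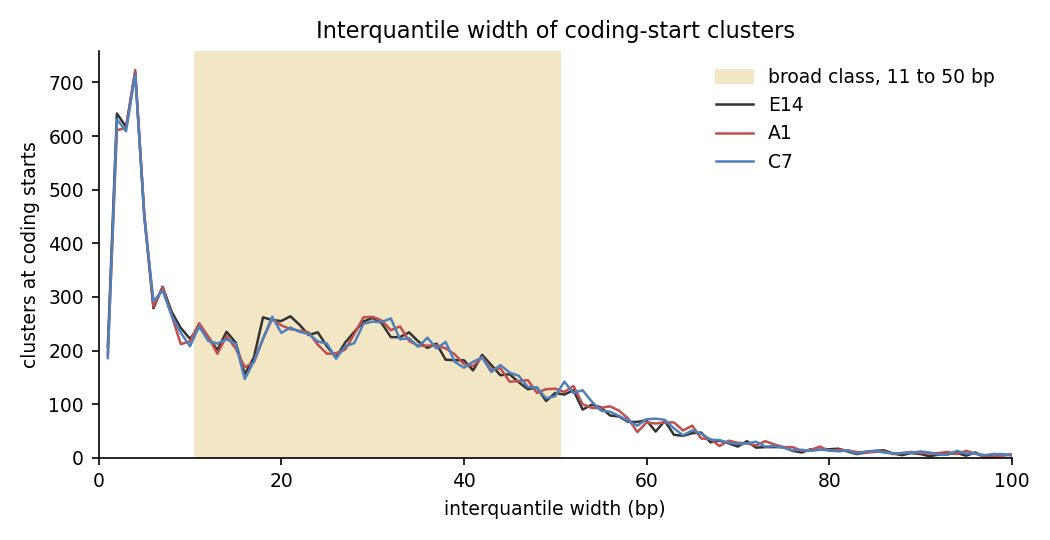
Number of coding-start clusters (vertical axis) at each interquantile width in bp (horizontal axis, 1 to 100 bp) in E14, A1 and C7, with the broad class shaded. All 3 lines peak at a few bp and have a long plateau through the shaded widths, with 244 E14 clusters at 11 bp and 121 at 50 bp.

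The members had a median interquantile width of 29 bp (quartiles 20 and 37 bp) within whole clusters of a median of 47 bp (29 and 69 bp). The whole cluster was a median of 1.55 times as long as the interquantile region, and in 1927 members (23.6%) the region was the whole cluster. Most of the genes had a single broad promoter: 5966 genes had 1 broad cluster, 875 had 2, 124 had 3 and 15 had 4. No other cluster lay at the coding start for 65.4% of the 6981 genes, while 21.7% also had a sharp cluster and 5.36% also one wider than 50 bp. Neighbouring broad clusters of 1 gene had dominant TSSs a median of 123 bp apart (quartiles 72 and 238 bp).

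The largest number was at Igf2bp3, which encodes an RNA-binding protein that acts on fetal mRNAs, with 6 broad clusters on the minus strand of chromosome 6. Their dominant TSSs lay from 464 bp upstream to 242 bp downstream of the annotated start. The cluster farthest upstream, chr6:49215407-49215458, was 39 bp wide in E14, 43 bp in A1 and 39 bp in C7. The next, chr6:49215354-49215369, was 16 bp wide in E14 and A1 and 3 bp in C7, with the same dominant TSS in all lines. At Arglu1, a regulator of splicing, the cluster at chr8:8690477-8690548 was 30 bp wide in every line and the downstream one at chr8:8690096-8690125 was 15 bp in E14, 14 bp in A1 and 30 bp in C7. At Senp6, a SUMO protease, 4 broad clusters lay between 1 bp upstream and 199 bp downstream of the start, with widths of 23, 27, 40 and 46 bp in E14 and in C7. A1 differed in width at the last of these alone, with 42 bp. The dominant TSSs of Senp6 differed more than the widths. In A1 they lay 9 bp downstream at the 23 bp cluster, 6 bp downstream at the 40 bp one and 34 bp upstream at the last. In C7 they lay 20 bp downstream at the 40 bp cluster and 6 bp downstream at the last.

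Relative to the annotated 5'-most start the dominant TSSs lay a median of 33 bp downstream (quartiles 6 and 109 bp). They were downstream of it in 79.9% of members, upstream in 15.9% and on the base itself in 4.21%. Within 50 bp of the start lay 56.1% of broad members, 43.9% of sharp clusters and 47.3% of those over 50 bp, and the interval of the broad class (55 to 57.1%) does not reach either of the others. The dominant TSS was in an untranslated exon in 76% of members, in coding sequence in 3.36% and in an intron or another transcript in 4.77%, and the rest were upstream of the gene. Sharp clusters were in coding sequence in 6.07% of cases. A cluster on the opposite strand within 500 bp upstream, the arrangement of divergent transcription, accompanied 24.5% of members (interval 23.6 to 25.5%), at a median of 169 bp. It accompanied 19% of sharp clusters and 28.6% of those over 50 bp. Where another coding gene started head to head within 1000 bp (1064 members) the share was 77.7%, and for the other 7090 members it was 16.6%.

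Within the interquantile region the dominant TSS was more often near an end than in the middle. Split into 3 parts of equal length, the region held the dominant TSS in its upstream part in 38.1% of members, in its middle part in 20.9% and in its downstream part in 41.1%. It was the first base in 15.9% and the last base in 18.7%, where 4.11% would fall on any given base if all bases of the region were equal. The region ends by definition where the summed signal passes 0.1 or 0.9, so a strong base near an end is itself the end. In the members whose region was the whole cluster the dominant TSS was on an end base in 64%, against 19.4% of the 2455 members whose cluster was over 2 times as long as the region. Sharp clusters had 11.2% in the middle part and those over 50 bp had 31.1%. Regions of 2 bp, 642 of the E14 coding-start clusters, have no middle base. The sharp share is thus limited by the width that set the class, and the class difference is a description.

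**Figure D2:**
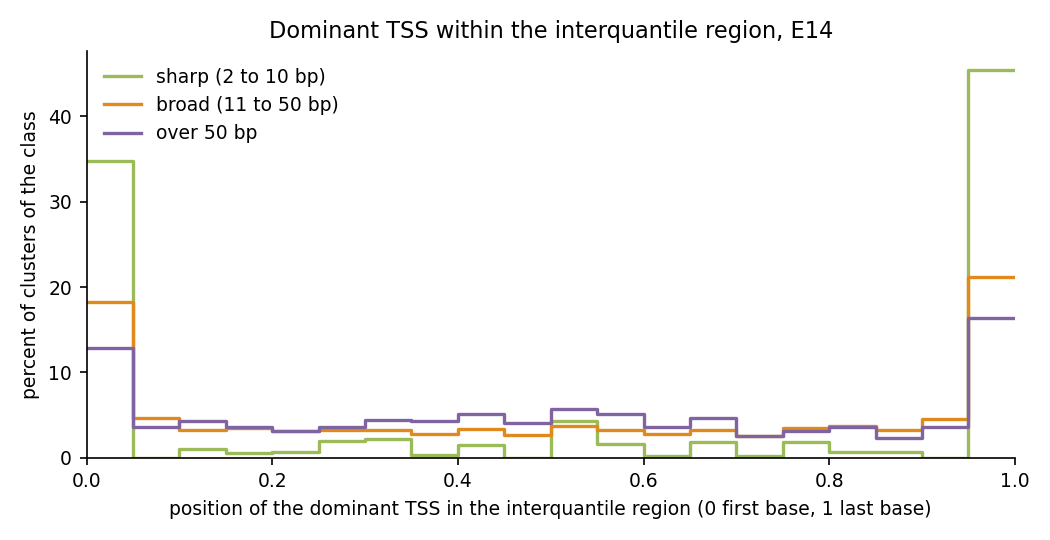
Position of the dominant TSS within the interquantile region (horizontal axis, 0 is the first and 1 the last base, in steps of 0.05) against the percent of clusters of the class (vertical axis) in E14, for sharp clusters of at least 2 bp, broad clusters and clusters over 50 bp. The outermost steps hold 18.2% and 21.2% of the broad clusters, and every step between them holds less than either.

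The bases at the dominant TSS followed the initiator in most members. Sequence was available for 7610 members (93.3%), and 82.1% had a pyrimidine before a purine (interval 81.2 to 83%), compared with 73.8% of sharp clusters and 85.2% of those over 50 bp. CA was the commonest step with 33.8%, followed by CG with 21.7%, TG with 17.2% and TA with 9.47%. The TSS base was adenine in 47.2%, guanine in 43.5%, cytosine in 8.07% and thymine in 1.22%. Such steps were common throughout the regions: the 7311 members with sequence over the whole region held a median of 7 of them (quartiles 5 and 9). They made up 24.5 of every 100 bases, with 10.6 CG and 5.44 CA steps per 100 bases, so CA stood at the dominant TSS far more often than its share of the region and CG by a smaller margin. The untemplated guanine that reverse transcription can add opposite the cap was not examined, and whether it was corrected for is not given in the sources used here.

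Around the start the members were rich in G and C, with a median of 66.7% in the 51 bases from 40 before to 10 after the dominant TSS, a value shared by the sharp class and the class over 50 bp. A CG dinucleotide was present in 97.8% of the 6943 member windows, with a median of 5. Adenine was found in 13.8% of members at position -31 and in 21.7% at -27, and thymine in 16.7% and 22%. In sharp clusters adenine reached 30.4% at -27.

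**Figure D3:**
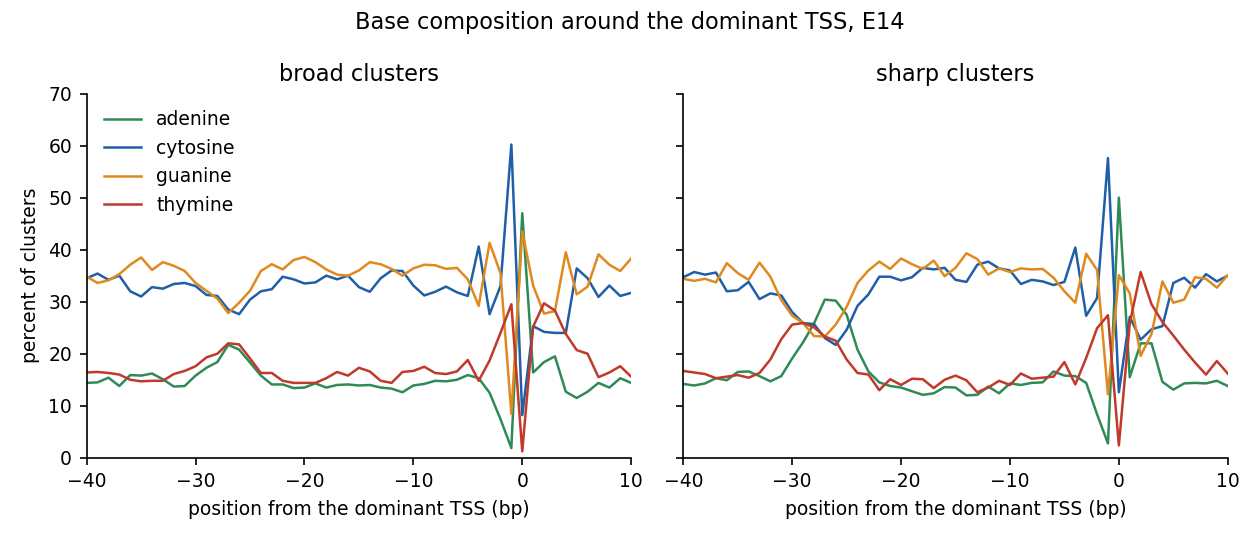
Percent of clusters with each base (vertical axis) by position in bp from the dominant TSS (horizontal axis, 0 is the TSS) for broad clusters (left) and sharp clusters (right) of E14. In broad clusters cytosine reaches 60.2% at -1 and adenine and guanine reach 47% and 43.5% at 0, and adenine peaks at 21.7% near -27, against 30.4% in sharp clusters.

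A TATA box, searched on the strand of the gene as the 6 bases TATAAA starting 35 to 25 bases before the dominant TSS, was found in 11 of 6943 members, or 0.158% (interval 0.0885 to 0.283%). It was found in 4.97% of 3218 sharp windows (4.27 to 5.78%) and in 0.525% of 1524 windows over 50 bp. The 11 genes, named after their values were seen, were Apod, Atp6v1e1, Gstm1, Hap1, Hist2h2ab, Krt8, Mplkip, Mrpl16, Tgm3, Txn1 and Zfp84. In each of these 11 members the dominant TSS was the E14 base in A1 and also in C7. Over all matched members it was the E14 base in 79.2% in A1 and in 81.5% in C7. The 11 are few, and whether they differ from other members was not tested. Sequences from the box (capitals) to the dominant TSS, the last base, are shown for Krt8 (chr15:102004314-102004343, minus strand), a keratin of simple epithelia, for Mrpl16 (chr19:11770347-11770380, plus strand), a mitochondrial ribosomal protein, and for Hist2h2ab (chr3:96219855-96219885, plus strand), a replication-dependent histone.
Krt8: TATAAAgggccttcgctgggcgctgtccca
Mrpl16: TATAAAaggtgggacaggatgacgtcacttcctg
Hist2h2ab: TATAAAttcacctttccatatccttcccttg

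The widths of these 3 members differed between the lines, while 4 of the 11 (Apod, Hap1, Tgm3 and Zfp84) had the same width in all lines. Krt8 was 25 bp wide in E14 and 5 bp in both A1 and C7. Hist2h2ab was 23 bp wide in E14 and 50 bp in both clones, and Mrpl16 was 15 bp in E14 and 19 bp in both.

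RefSeq promoters, the 250 bases before to 50 bases after a gene's start, were found for 4186 of the 5208 genes that had broad clusters only (80.4%) and for 896 of 1087 genes with clusters over 50 bp only (82.4%). For genes with sharp clusters only the share was 77.1%, below the minimum of 80%, and they were left out. Motifs were searched on both strands, and none of the sequences lies within another. GGGCGG, the GC box, was in 68.1% of the promoters of genes with broad clusters only, in 69.6% of those of all genes with a coding-start cluster (80% of which had a promoter) and in 35.7% of all 32851 promoters of the table. CCGGAAG, bound by ETS factors, was in 23.9%, against 21.4% for genes with a cluster and 8.86% for all promoters, and AAGATGG, the core of the YY1 motif, was in 9.25%, against 8.17% and 6.34%. CCAAT was in 41.4%, against 41.3% and 37.4%. The broad values thus lay close to those of any gene with a cluster, a set that includes the broad genes. Compared with genes that had only clusters over 50 bp, the broad genes had fewer GC boxes (68.1 and 75%) and more YY1 cores (9.25 and 5.13%), with intervals that do not overlap, while CCGGAAG was alike in both (23.9 and 24.8%). A G and C content of at least 50% with an observed over expected CpG ratio of at least 0.6 was met by 77.1% of broad promoters, by 76.1% of those of genes with a cluster and by 33.5% of all promoters in the table.

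The 18 gene lists covered widely used cell functions, and their shares of genes with a broad cluster ranged from 35.8 to 91.3%, where 71.6% of all 9753 genes with a coding-start cluster had one. The intervals of 2 lists lay above that share, those of 4 lay below it and those of the other 12 held it. Of the mitochondrial ribosomal proteins, which build the ribosome inside mitochondria, 63 of 69 genes had a broad cluster (91.3%, interval 82.3 to 96%), and 69 of 82 nuclear genes of oxidative phosphorylation did (84.1%, interval 74.7 to 90.5%). With intervals that hold the share of all genes, proteasome subunits had one in 25 of 30 genes, hnRNP proteins, which bind nascent RNA, in 16 of 18, and Polycomb proteins in 15 of 18. By the cluster nearest to the start alone hnRNP proteins were below all genes (61.1 and 63.9%). At the lower end, 19 of 53 replication-dependent histone genes had a broad cluster (35.8%) and 50 of them a sharp one. Cytosolic tRNA synthetases had one in 9 of 19 genes, with clusters over 50 bp in 10, and heat shock chaperones in 38 of 70. With intervals that hold the share of all genes, actin, tubulin and other cytoskeletal genes had one in 14 of 25 and pluripotency factors in 15 of 26.

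The remaining lists lay near all genes. RNA polymerase II, its initiation factors and Mediator had a broad cluster in 56 of 74 genes, DNA repair in 31 of 40, DNA replication and licensing in 30 of 40, and translation initiation and elongation factors in 44 of 59. Cell cycle genes had one in 27 of 37, spliceosome and SR proteins in 34 of 49, and the NuRD and PWWP2 complex in 9 of 14. Pwwp2a itself had a broad cluster at chr11:43681990-43682032, 36 bp wide in E14 and A1 and 35 bp in C7, with 1 dominant TSS in all lines. The position of the deletion is not held in the files, so this cluster does not check the knockout.

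**Figure D4:**
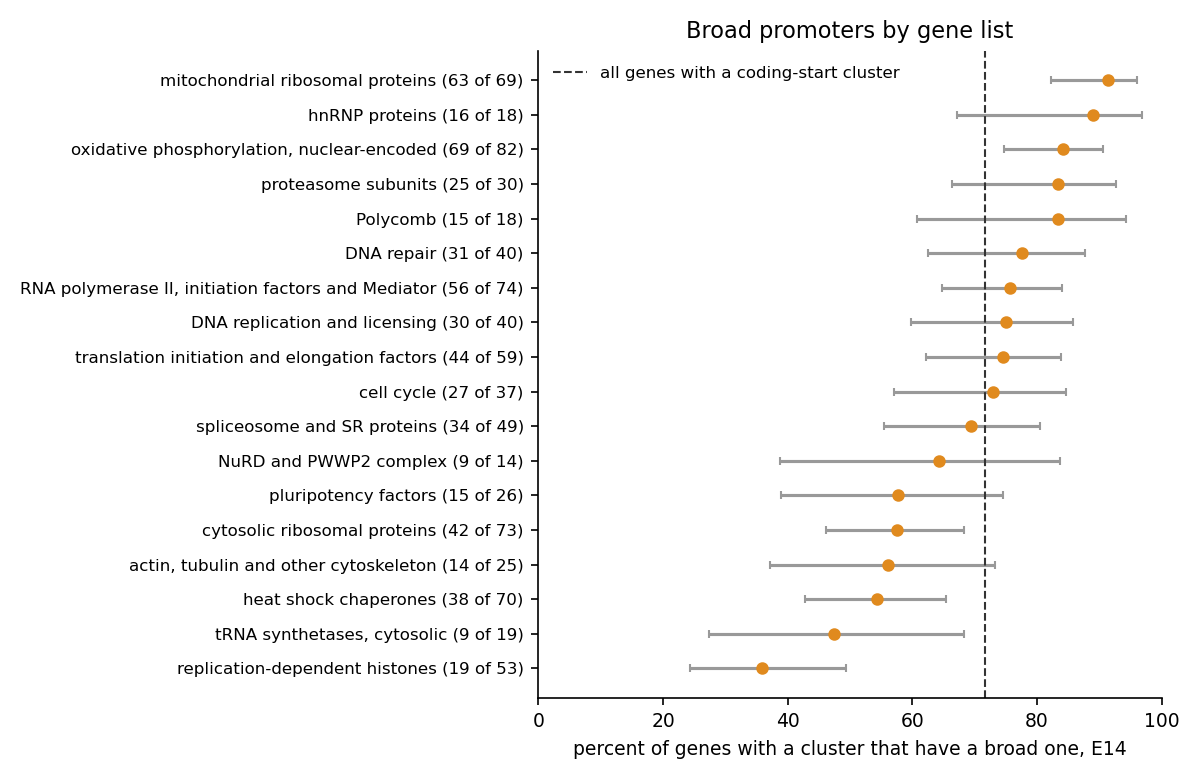
Percent of genes with a coding-start cluster that have a broad one in E14 (horizontal axis) for 18 gene lists, with the counts beside each name. Points are shares with 95% Wilson intervals, and the dashed line marks all such genes (71.6%). Mitochondrial ribosomal proteins stand highest at 91.3% and replication-dependent histones lowest at 35.8%.

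Cytosolic ribosomal proteins, the building blocks of the translating ribosome, were set apart by the base on which their broad clusters started. A broad cluster was present in 42 of 73 genes (57.5%) and a sharp one in 59, and in 23 genes the cluster nearest to the annotated start was broad. Among their 62 broad clusters with sequence 30 started on cytosine (48.4%), against 7.74% of the other 7548 members, and 27.4% had a pyrimidine before a purine, against 82.6% of the others. Of the 30, 24 lay in an untranslated exon or upstream of the gene, and in all 21 of these with a full window the cytosine lay in a run of 5 or more pyrimidines. Such a run was present in 63.5% of the 542 other members that started on cytosine and had a window. The dominant TSS of these 30 clusters was the same base in 29 in A1 and in 28 in C7, the exceptions being Rps16, 1 bp upstream in both clones, and Rpl23, 1 bp downstream in C7. Over all matched members it was the same base in 79.2% in A1 and 81.5% in C7. The 614 members of any gene that started on cytosine moved in 23% in A1 and 21.2% in C7. Rpl4 was 34 bp wide in E14, 35 bp in A1 and 37 bp in C7, and Rpl37 was 12 bp wide in every line.

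Of the 65 broad clusters of these genes 17 lay inside the coding sequence, and none of these 17 had a pyrimidine before a purine. The 17 include 6 of the clusters counted above as starting on cytosine. Rps20, in coding sequence 469 bp from the annotated start, was 11 bp wide in E14 and 7 bp in both clones. At Rps12 (chr10:23786997-23787044) the width was 44 bp in E14 and A1 and 46 bp in C7, and the dominant TSS lay 29 bp upstream in A1 and 43 bp upstream in C7. Ribosomal protein and histone genes have near-identical copies elsewhere in the genome, and reads that map to more than 1 copy were dropped by the authors' choice of unique alignments. Mitochondrial ribosomal proteins differed from the cytosolic ones in both respects: 90.1% of their 71 broad clusters with sequence had a pyrimidine before a purine, 1 started on cytosine and none lay in coding sequence. Replication-dependent histones had 12 of 25 broad clusters in coding sequence, and hnRNP proteins 5 of 23.

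Nearly every member had a counterpart in the clones. A same-strand cluster sharing 1 bp or more with the E14 cluster was present for 8144 of 8154 members in A1 and also in C7, leaving 10 unmatched in each, where 0.709% of all E14 clusters were unmatched in A1 and 0.749% in C7. The bounds of the cluster were the same to the base in 98.8% of matches in A1 and 99.5% in C7. Whether clusters were called separately in each line is not given in the sources used here. Unmatched in A1 were clusters of C1rl, Cubn, Erf, H2afz, Kctd2, Pcnx2, Rpl8, Rps12, Tarbp2 and Tnfsf11, and in C7 of Atf2, Atp6v1c1, Axl, Card10, Kctd16, Phactr3, Rpl8, Sh3tc2, Sipa1l3 and Slc16a3. These 20 clusters, listed after their values were seen, were from 11 to 31 bp wide in E14. The 2 of Rpl8 are different clusters of the gene.

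The dominant TSS was another base in 1694 members in A1 (20.8%, interval 19.9 to 21.7%) and in 1510 in C7 (18.5%, 17.7 to 19.4%). The background over all E14 clusters was higher, 23.8% in A1 and 21.1% in C7. Coding-start clusters of other widths had shares near those of the members, so these shares are not particular to the broad class. Those of 1 to 10 bp moved in 21.1% in A1 and 18.3% in C7, and those over 50 bp in 19.8% and 18.6%. The A1 and C7 comparisons use the same E14 clusters and are given side by side only. Between the clones themselves 1753 of 8134 members differed (21.6%), against a background of 25.2%. A1 and C7 have both genes knocked out alike, and the differences between these shares were not tested. The dominant TSS was the same base in all 3 lines for 71.2%. Moves went upstream in 818 and downstream in 876 members in A1, and in 719 and 791 in C7. Their median size was 11 bp in both clones (quartiles 5 and 19 bp), against 3 bp in sharp clusters, and 98.5% in A1 and 99.1% in C7 ended on a base inside the interquantile region of E14. A move inside the region cannot exceed its width, which set the classes, so the sizes are a description. In A1 the median move was 10 bp at widths of 11 to 20 bp, 16.5 bp at 41 to 50 bp and 25 bp over 50 bp.

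Members that started on the CA step moved least often, 17.1% in A1 and 13.3% in C7. Members with any pyrimidine before a purine moved in 19.3% and 17% of cases, and those with another step in 24.8% and 22.9%, with intervals that do not overlap in either clone. Among moved members with sequence at both bases the share with a pyrimidine before a purine was 78.1% at the E14 base and 72.9% at the A1 base, and 77.4% at the E14 base and 75% at the C7 base. The share on CA was 28.2% before and 27.8% after in A1, and 24.7% before and 30.5% after in C7. Members in coding sequence moved in 27.6% (A1) and 24.5% (C7), and members in untranslated exons in 19.3% and 16.9%.

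The length of the whole cluster relative to its interquantile region went with the share of moves more than the place of the member, its distance from the start, its TSS base or its width did. Where the region was the whole cluster 35.2% of members moved in A1 and 32.6% in C7. With a cluster up to 1.5 times as long the shares were 23.5% and 19.5%, with 1.5 to 2 times 17.1% and 14.8%, and with over 2 times 10.1% and 9.53%. The first of these groups was also narrower, with a median width of 19 bp against 28 bp in the last. By width itself the shares ran from 22.6% at 11 to 20 bp to 20.1% at 41 to 50 bp in A1, and from 21.2 to 16.9% in C7. Signal strength, which is not held in the clusters, may differ between these groups, and its part in the result was not tested.

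**Figure D5:**
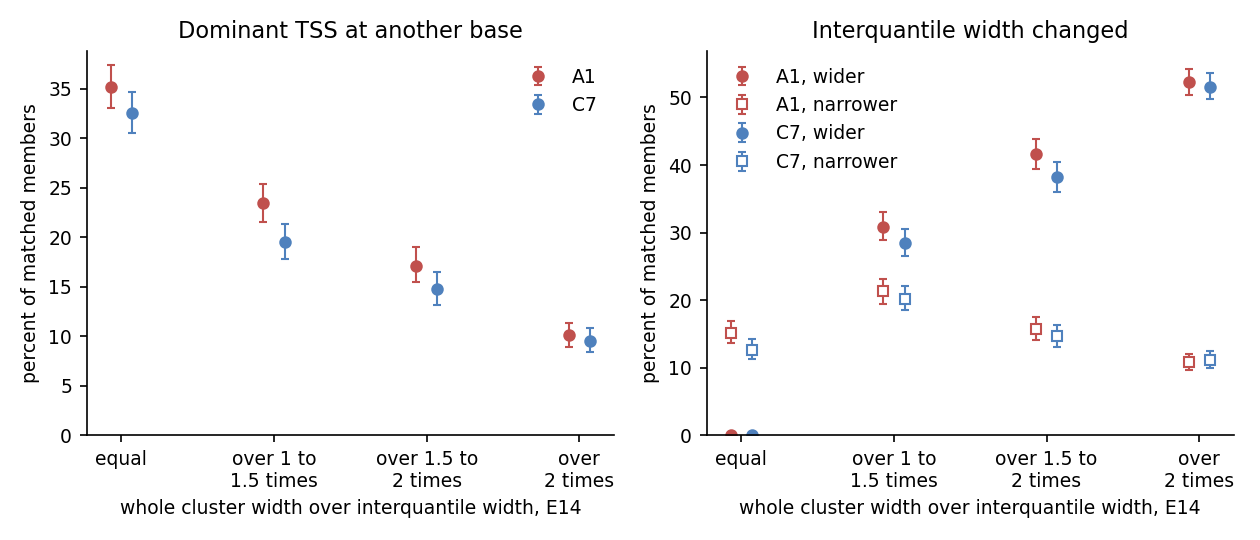
Percent of matched members (vertical axes) with another dominant TSS (left) and with a wider or narrower interquantile region (right) in A1 and C7 than in E14, by the length of the whole E14 cluster relative to its interquantile region (horizontal axes). Points are shares with 95% Wilson intervals. Moves fall from 35.2% to 10.1% in A1 and from 32.6% to 9.53% in C7 from left to right, and the share that was wider rises to 52.3% and 51.6% from a first group in which the region, being the whole cluster, could hardly widen.

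The 10 members with the farthest moves that went the same way in both clones moved from 40 to 83 bp. The largest was at Tpm1, a tropomyosin of actin filaments, on the minus strand of chromosome 9, where the dominant TSS was at 67049292 in E14 and 83 bp downstream, at 67049209, in A1 and C7. Its interquantile width was 22 bp in E14 and 5 bp in both clones. Prkaa2, the catalytic subunit of the energy sensor AMPK, moved 49 bp downstream in both clones, with widths of 50, 54 and 56 bp in E14, A1 and C7. Pdlim5, a cytoskeletal adaptor, moved 44 bp downstream in both clones and stayed 46 bp wide in all lines. Mmp14, a membrane-bound metalloprotease, moved 45 bp downstream in A1 and 40 bp in C7, and was 46 bp wide in E14, 58 bp in A1 and 62 bp in C7. The 10 members were chosen by these moves, which are therefore a description.

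The bases at the old and new dominant TSSs of 3 of these members show the separate sequences on which the E14 and clone starts lie. At Tpm1 the clones' start lay outside the E14 cluster, chr9:67049271-67049292. Capitals mark the base before the TSS and the TSS, for Tpm1 at chr9:67049282-67049302 in E14 and chr9:67049199-67049219 in the clones, for Pdlim5 at chr3:142395668-142395688 and chr3:142395624-142395644 (both minus strand), and for Mmp14 at chr14:54431593-54431613 in E14, chr14:54431638-54431658 in A1 and chr14:54431633-54431653 in C7 (plus strand).
Tpm1 E14: caagcttttCCaaaaaagtat
Tpm1 A1 and C7: ctccgcgctCGcactccggct
Pdlim5 E14: cggaggcggAAgttccccacc
Pdlim5 A1 and C7: accgcgagcCActtgtcagcg
Mmp14 E14: gagaggctgTGggagaaggga
Mmp14 A1: cttccaactCAgttcgccgac
Mmp14 C7: gagggcttcCAactcagttcg

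Of the 10 members 2 started on CA in E14, 4 in A1 and 5 in C7. At Pdlim5 and Mmp14 the clones' starts were on CA and the E14 starts on AA and TG, while 3110082I17Rik went from CA to GA in both clones and Etv6 from TC to TT. At Etv6, a transcriptional repressor of the ETS family, the move was 43 bp downstream in both clones at a constant width of 45 bp, and at Dazap2, a proline-rich adaptor, it was 41 bp downstream at 46 bp wide. 3110082I17Rik moved 41 bp upstream in both clones, the only upstream move among the 10. The other members of the list were Tmem237, Gm45785 and Gltp, which moved from 40 to 42 bp downstream.

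More members were wider than narrower in the clones. In A1 2641 members were wider than in E14 (32.4%) and 1261 narrower (15.5%), against backgrounds of 20.3% and 10.5%. In C7 2516 were wider (30.9%) and 1183 narrower (14.5%), against 18.5% and 10.6%. These shares went with the E14 width, which chose the members, and are not particular to the broad class. Coding-start clusters over 50 bp were wider in 38.4% and narrower in 24.6% in A1, and in 36.4% and 26.6% in C7. For those of 1 to 10 bp the shares were 15.1% and 4.74% in A1, and 12.6% and 5.04% in C7. Wider members outnumbered narrower ones on all 20 chromosomes counted, in both clones, and a median of 3 bp separated the widths in either direction. Between the clones the counts were even, 24.3% wider in C7 than in A1 and 24.7% narrower, against backgrounds of 14.7% and 16.5%. Because the E14 width chose the members, the count was repeated with members set by the width in the other clone, an alternative added after the data were seen, which gave 32.1% wider and 15.7% narrower in A1 and 30.5% and 14.7% in C7. A region that is already the whole cluster cannot widen unless the bounds of the cluster change, so the 0.0522% in A1 and 0% in C7 that were wider there are fixed by construction. Where the cluster was over 2 times as long as the region 52.3% and 51.6% were wider. The line and the depth of its merged libraries cannot be told apart here.

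Large differences were few, and which direction led depended on the limit. A width at least 1.5 times that of E14 was found in 234 members in A1 (2.87%) and 233 in C7 (2.86%), against backgrounds of 5.35% and 4.49%. A width at least 1.5 times smaller was found in 215 in A1 (2.64%) and 185 in C7 (2.27%), against 2.97% and 2.99%. A fold limit is reached by fewer bp in a narrow cluster, and the backgrounds include clusters of up to 10 bp. The width chose the members, so their shares beside the backgrounds are a description. At a limit of 2 times narrower members led, with 1.28% against 0.7% wider in A1 and 1.17% against 0.688% in C7. With members set by the width in the other clone, at 1.5 times, wider members led, with 3.72% against 2.37% narrower in A1 and 3.64% against 2.03% in C7. The median width of the members was 29 bp in all 3 lines. By the clones' own widths 95.4% of matched members were broad in A1 and 95.5% in C7, 1.42% and 1.34% were sharp, and 3.2% were over 50 bp in each.

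The 5 members that widened most in both clones were at Rex1bd, Seh1l, Fam216a, Ugp2 and Lrrc31. Rex1bd was 16 bp wide in E14 and 62 bp in both A1 and C7, with 1 dominant TSS throughout. Its whole E14 cluster was 22 bp long, so the clusters matched in the clones had wider bounds. Seh1l, a nucleoporin, was 37 bp wide in E14, 74 bp in A1 and 75 bp in C7. Ugp2, the enzyme that makes UDP-glucose, was 41 bp wide in E14 and 72 bp in both clones, and its dominant TSS moved 22 bp upstream in both. The 5 that narrowed most included a pair of keratins that form filaments together in simple epithelia. Krt18 was 27 bp wide in E14, 5 bp in A1 and 7 bp in C7, beside Krt8 with 25, 5 and 5 bp, and neither dominant TSS moved. Mymx, a muscle fusion factor, was 25 bp wide in E14 and 5 bp in both clones, and Aldoc, a glycolytic aldolase, 32 bp and 13 bp. The broad cluster in the coding sequence of Hist1h4a was 42 bp wide in E14 and 13 bp in both clones, while the one at its start was 38 bp in all lines.

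Among the genes of the lists the embryonic stem cell regulators and chromatin genes showed both patterns. Pou5f1, the pluripotency factor OCT4, had a broad cluster of 31 bp in every line in its untranslated exon and 2 in its coding sequence, of 11 bp in every line and of 15 bp in E14 and 35 bp in both clones. Lin28a, an RNA-binding protein of stem cells, was 43 bp wide in E14, 45 bp in A1 and 28 bp in C7. Ezh2, the methyltransferase of Polycomb repressive complex 2, was 48 bp wide in E14, 60 bp in A1 and 61 bp in C7, and its partner Suz12 was 47, 46 and 47 bp. Aebp2, an accessory subunit of the same complex, kept a width of 13 bp while its dominant TSS moved 12 bp downstream in both clones. Mbd3 of the NuRD complex was 43, 45 and 54 bp wide and Gatad2a 50 bp in all lines. Nap1l1, a histone chaperone whose profile the study examined, had a broad cluster of 29 bp in E14, 34 bp in A1 and 29 bp in C7. Its dominant TSS lay 98 bp downstream of the annotated start. Another Nap1l1 cluster, 4 bp downstream of that start, was sharp in E14 with 10 bp and 34 bp wide in both clones. Ptges3, a co-chaperone also examined in the study, had a single coding-start cluster, of 192 bp in E14, and is no member. Pwwp2b had no cluster at its 5'-most coding start in E14.

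The share of clusters that moved was 20.8% in A1 and 18.5% in C7 over all members. In single lists it rests on few clusters and is given without an interval, and whether the lists differ was not tested. Of 27 broad clusters of proteasome subunits 1 moved in A1 and 2 in C7 (3.7 and 7.41%). Histones moved in 28 and 32% of 25 clusters and hnRNP proteins in 26.1 and 34.8% of 23. Among the mitochondrial ribosomal proteins 11 of 72 moved in A1 and 12 in C7 (15.3 and 16.7%), 29 were wider and 7 narrower in A1, and none differed by 1.5 times or more in either clone. Cytosolic ribosomal proteins moved in 17.5 and 17.2%, and had 18 wider and 14 narrower of 63 matched clusters in A1 and 16 of each of 64 in C7. Atp5g3, a subunit of the ATP synthase, was 11 bp wide in E14, 17 bp in A1 and 28 bp in C7, and Aurka, a mitotic kinase, 11 bp in E14 and 19 bp in both clones. Brca2 stayed at 49, 49 and 48 bp, and Prpf39 and Rrm1, a subunit of ribonucleotide reductase, at 12 bp and 11 bp in all lines.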

How the data were processed

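Capped 5' ends of nuclear RNA from 8 libraries (3 E14, 2 clone A1, 3 clone C7) were analysed as the tag clusters deposited by the authors. Per the study's methods and the submitters' processing notes, reads were mapped to mm10 with STAR 2.4.2a, unique alignments were kept, replicates were merged, and CAGEr clusters were called after power-law normalization. The deposited values used are positions in bp, a unit of their own: cluster bounds, dominant TSS and the interquantile region, taken as the longest block of each entry. All scores are 0 and were not used, so depth per cluster is unknown, and the signal threshold used in calling clusters is not given in the sources used here.

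Clusters were assigned to coding starts, divided by width and matched between lines by 1 bp same-strand overlap (SciPy 1.17.1 and NumPy 2.4.6 under Python 3.11.15), and figures were drawn in Matplotlib 3.10.9. Sequence was read from RefSeq promoters of GRCm38.p6 and GENCODE vM21 transcripts, which agreed at every shared base. Promoter sequence checks covering less than 80% of a set of genes were left out. With 1 merged set per line no p-value was calculated. The functions were tested on simulated clusters and recovered 2000 of 2000 classes, positions and matches. Genes named were the 2 narrowest and 2 widest members of each list, the farthest moves, the largest width differences, the genes with the most broad clusters, the study's genes and those at the width limits, with exceptions stated. The members and lists were chosen with earlier results of these data known. Alternatives were the promoter window, strand, width measure, gene start, overlap rule, TSS tolerance, fold limit and cluster nearest to the start.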

Additional observations from a re-analysis of the deposited data

How the results depend on the processing

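No paired analysis was possible because the replicates of each line were merged before clusters were called, and for the same reason no replicate could be left out. Of 60 alternative values 29 stayed within the interval of the value reported (for counts, within 1.5 times) and 31 lay outside it, and the cause was not tested. Among the pairs of shares that turned their order were wider against narrower members in both clones at a limit of 2 times and, by the nearest cluster, hnRNP proteins (from above to below all genes) and spliceosome and SR proteins (from 69.4%, below, to 65.3%, above).

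By the width of the whole cluster there were 4962 members in place of 8154. The share of dominant TSSs in the upstream part of the region was 29.5% within the whole cluster and 36.9% at genes with 1 cluster. The median distance from the start was 5 bp from the nearest coding transcript and 21 and 38 bp with windows of 100 and 1000 bp. With 50% reciprocal overlap 99.6% of members were matched in A1. The same dominant TSS was found for 84.9% (A1) and 86.6% (C7) within 5 bp and for 80.7% and 82.8% with a window of 100 bp. With a limit of 2 times 0.7% (A1) and 0.688% (C7) were wider and 1.28% and 1.17% narrower, and with a limit of 5 bp 11.8% and 11% were wider and 5.82% and 5.08% narrower. With members set by the other clone, added after the data were seen, 3.72% and 3.64% were at least 1.5 times wider. An opposite-strand cluster accompanied 19.5% within 300 bp and 26.8% within 1000 bp. With a window of 100 bp 1222 genes had several clusters, against 2929. By the cluster nearest to the start alone the share of genes with a broad promoter was 63.9% for all genes, 31.5% for cytosolic ribosomal proteins, 61.1% for hnRNP proteins, 17% for histones and 38.5% for pluripotency factors. TATAAA 40 to 20 bases before the start was in 0.215% of promoters of genes with broad clusters only, against 2.89% over the whole promoter. CA alone was the step at 33.8% of dominant TSSs.

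The merged sets limit every comparison between lines: neither replicate error nor signal per cluster is known, and nearly all clusters have the same bounds in the 3 lines.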

Other observations

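The 9753 genes with a coding-start cluster leave 12198 protein-coding genes of GENCODE vM21 without one in E14. RefSeq promoters were found for 74.6% of these, below the minimum of 80%, so their sequences were not compared with those of broad promoters.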
